A study of Saccharomyces cerevisiae with 4 samples.

Results

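The genes described here are the reading frames at the outer edges of the yeast chromosomes: single-exon reading frames of the 16 nuclear chromosomes that lay wholly within 10000 bases of the outermost annotated base of their chromosome. They were chosen by position alone, from the start and end coordinates of the count table, and no expression value entered the choice. Of 6692 reading frames in the table, 156 met the rule, spread over all 32 chromosome ends. A further 13 reading frames in the same window were left out because they have more than 1 exon, and PHO11 and PHO12, which encode secreted acid phosphatases, were left out by name. The contrast was with 6190 other single-exon nuclear reading frames, and in particular with those of like length and like abundance in the lysate.

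RNA was compared between eluted particles and total lysate of the haploid laboratory strain BY4741, with 2 libraries of each fraction. All 4 libraries came from cells of 1 genotype grown in YPD, with sub2-FLAG-3C-ProtA marked by kanMX4 and hpr1-TS marked by hphNT1, so that the lysates carry both tags too. Sub2, a nuclear RNA helicase, and Hpr1, a subunit of the THO complex, were captured one after the other, and the particles were released natively with biotin. The eluates are therefore RNA bound, directly or not, to 2 tagged nuclear proteins, and the lysates are RNA of whole cells before the first capture. The study calls the replicates biological.

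Yeast chromosome ends carry telomeric repeats, X elements and, at many ends, Y′ elements, followed by gene families that are shared among ends. Sir2, Sir3 and Sir4 spread inward from telomere-bound Rap1 and deacetylate histones, which silences many genes near the ends. The families found there include the Y′ helicases, the seripauperins, the COS membrane proteins and genes for the uptake of sugars, metals and siderophores, many of which are used only under particular growth conditions. Because copies on different chromosomes are often near-identical, a short read from one can fit several.

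Of the 156 reading frames, 58 had a gene symbol, 42 were in RefSeq under a systematic name alone, and 56 were not in the RefSeq table. Their median coding length was 483 bases, against 1113 bases in the other single-exon genes. Counts summed to 22454265 and 29903666 in eluates 1 and 2, and to 14793216 and 11448755 in lysates 1 and 2, so that 3 counts correspond to between 0.1 and 0.262 CPM (counts scaled to a common library size). The lysates, being shallower, set the limit of detection. Levels are CPM over library sizes adjusted by the trimmed mean of M-values (TMM), so that a fold change compares a gene's place in the eluate pool with its place in the lysate pool, not absolute amounts.

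Most of the end genes had few or no reads in either fraction. In the eluates, 88 of 156 (56.4%) lay below 0.537 CPM in at least 1 library, the level that corresponds to 10 counts in the median library, against 7.92% of the other single-exon genes. In the lysates 102 of 156 (65.4%) did, against 8.34% of the others. No read at all was counted in any of the 4 libraries for 38 end genes (24.4%), against 164 of 6190 others (2.65%). Of those 38, 29 were not in RefSeq, and 23 overlap another reading frame on the opposite strand. Among members in RefSeq 9 of 100 (9%) had no reads, against 76 of 5574 others in RefSeq (1.36%). Outside RefSeq 29 of 56 (51.8%) had none, against 88 of 616 others (14.3%). Of the 104 members that overlap no other reading frame, 10 (9.62%) had none. The median level per kilobase of coding length was 0.992 CPM in eluates and 0.260 CPM in lysates for the end genes, and 36.6 CPM in eluates and 36.1 CPM in lysates for the others. Counts cannot separate fewer cells transcribing a gene from less RNA per cell.

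Counts of 0 were not even between the fractions, at the chromosome ends or elsewhere. Of 61 end genes with 0 counts in both lysates, 23 had counts in an eluate, whereas 1 gene, PAU9, had lysate counts and none in the eluates. PAU9 had 1 count in each lysate. Of 195 other single-exon genes with 0 counts in both lysates, 31 had counts in an eluate, and 8 others had lysate counts alone. The lean toward the eluates was thus not particular to the chromosome ends. The eluates were sequenced more deeply, and this difference in depth moves in the same direction as these counts. Its part in them was not tested.

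The share of reading frames below the filter differed with the distance from the end. Among the 69 reading frames whose near side lay within 2.5 kb of the end, 73.9% fell short of the filter in the eluates and 75.4% in the lysates, and their median lysate level was 0 CPM. This band holds most of the reading frames of 483 bases and all of those of 576 bases, described below, nearly all of which had 0 counts. In the bands from 2.5 to 5, 5 to 7.5 and 7.5 to 10 kb, with 21, 42 and 24 reading frames, 33.3%, 45.2% and 45.8% fell short in the eluates. In the lysates 52.4%, 54.8% and 66.7% did, so that from 2.5 to 10 kb the share did not fall with distance. At 10 to 20 kb the share was 23.4% in the eluates and 30.7% in the lysates of 137 reading frames, and at 20 to 30 kb it was 10.3% and 13.1% of 145. Beyond 30 kb, 7.46% fell short in the eluates and 7.60% in the lysates of 5868.

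**Figure D1:**
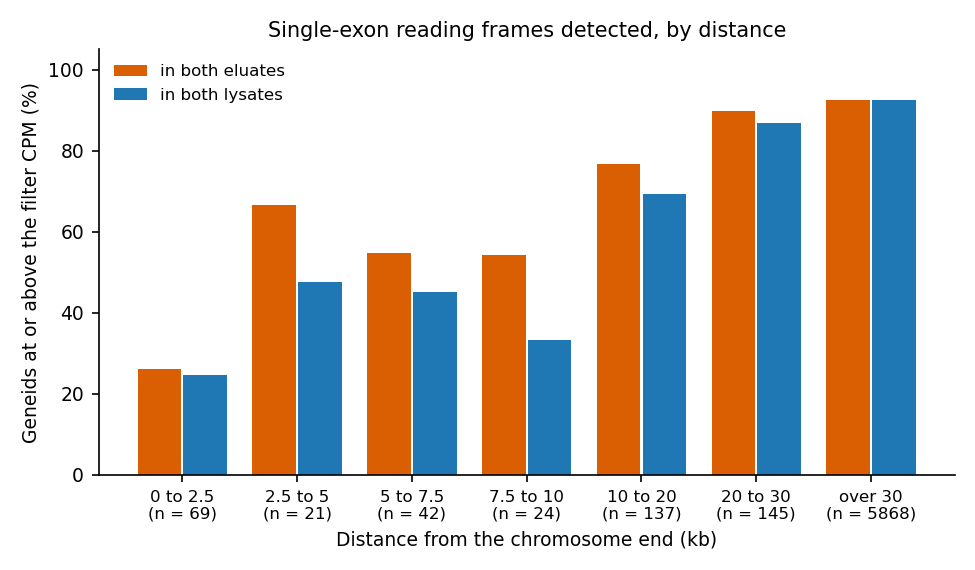
Share of single-exon reading frames (percent, y axis) that reached the filter of 0.537 CPM in both eluates (orange) or in both lysates (blue), by distance of the near side from the chromosome end in kb (x axis, with the number of reading frames in each band). Within 2.5 kb of the end the bars are lowest in both fractions, and the eluate bar is above the lysate bar in every band, those beyond 10 kb included.

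Many of the members without reads shared a coding length with others, which was the only measure of likeness available, since no sequence was compared. Of 18 members with a length of exactly 483 bases, 17 had 0 counts in all libraries and the other, YFL068W, had 2 counts in all. All 5 members of 576 bases were at 0. Each of the members at 0 with these 2 lengths overlaps another reading frame on the opposite strand. For example, YEL077W-A (chrV:630-1112) lies inside YEL077C, which had 4729 and 6844 eluate counts. Among the seripauperins, PAU1, PAU14, PAU21 and PAU22 were at 0, and the last pair share a length of 495 bases. A further 12 members at 0, such as VBA3 and YAR069C, are no part of these groups. A count of 0 allows up to 3 counts at this depth, with the handling of reads that fit several places not given in the sources used here. Where members are near-identical copies or overlap another reading frame, a low count cannot be told apart from reads that could not be placed or assigned.

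To ask which end genes were over-represented in nuclear particles, eluates were set against lysates with edgeR's quasi-likelihood test across all 6191 genes that passed the filter on low counts, at a Benjamini-Hochberg adjusted p under 0.05. Of the 156 end genes, 83 were not tested. Of the 73 tested, 50 reached the filter in both fractions, 18 in the eluates only, 4 in the lysates only and 1 in both libraries of neither fraction. Genes that passed only through the fraction where they are high were selected for a difference (17 of the 18 that passed through the eluates were higher), so that counts over all 73 are descriptions of the genes measured.

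Of the 73 tested end genes, 50 were higher in the eluates (68.5%), 11 were lower (15.1%) and 12 did not pass the test. Over all genes tested, 44.2% were higher and 44.8% were lower. More than 4-fold higher were 27 end genes (37.0%), against 15.0% of all genes. The median log2 fold change of the end genes was 1.30, against -0.01 over all genes, and it was 1.30 also with the 2 members without lysate counts set at their lower bound. Among the 50 end genes that reached the filter in both fractions, 33 were higher, 7 were lower and the median log2 fold change was 1.00. For the 5593 other single-exon genes that reached it in both, these values were 2515, 2457 and 0.03.

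Over the tested genes, all bands inside the window had a higher median than those farther in. Median log2 fold changes were 1.28, 1.63, 1.25 and 1.96 in the 4 bands from the end to 10 kb. They were 0.59 at 10 to 20 kb, where 55 of 106 tested genes were higher and 39 lower, and 0.72 at 20 to 30 kb, where 74 of 132 were higher and 45 lower. Beyond 30 kb the median was 0.01. Genes that reached the filter in the eluates only made up 3 of 20, 4 of 15, 6 of 25 and 5 of 13 tested in the 4 bands. Farther in they were 10 of 106, 6 of 132 and 87 of 5514. Their part in these medians was not tested. Across the end genes, Spearman's rho between distance from the end and log2 fold change was -0.10 over the 73 tested and -0.31 over the 50 that reached the filter in both fractions.

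**Figure D2:**
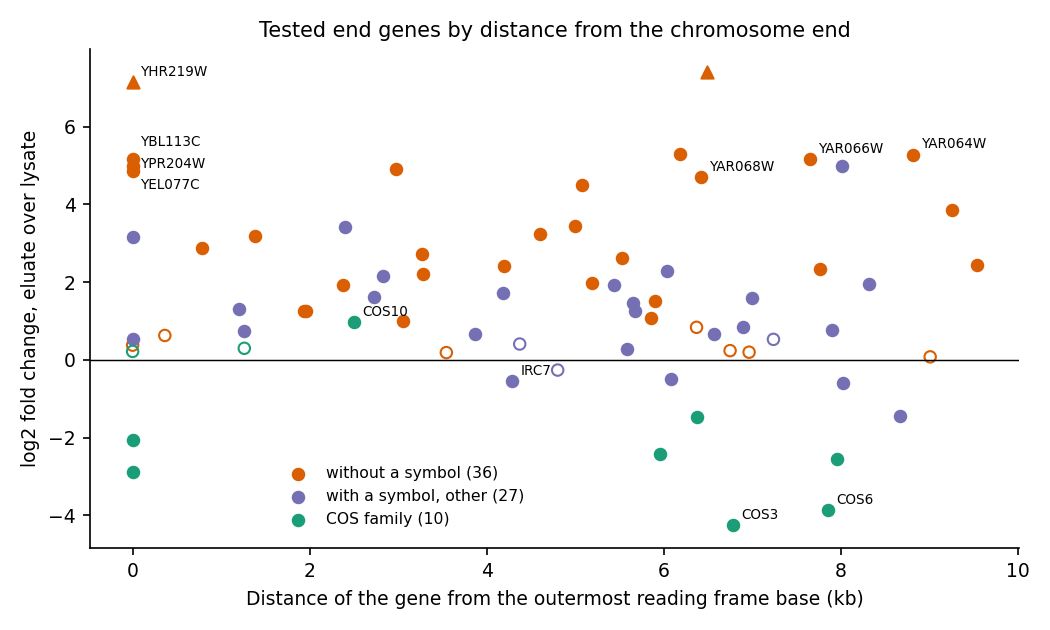
Log2 fold change, eluate over lysate (y axis), of the 73 tested end genes against the distance of each gene from the outermost reading-frame base of its chromosome arm in kb (x axis). Filled points passed edgeR's test, open points did not, and triangles are the 2 genes without lysate counts, whose fitted value depends on the prior count. Genes without a symbol (orange) lie at or above 0, and the points far below 0 are COS genes (green).

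The members split by what is known of them. Of the 36 tested reading frames without a symbol, 29 were higher, 0 were lower and 7 did not pass edgeR's test, with a median log2 fold change of 2.54. At an unadjusted p under 0.05, too, no such gene was lower, since each of the 7 had a log2 fold change above 0. Of the 37 with a symbol, 21 were higher, 11 lower and 5 neither, with a median of 0.66. The 37 include the 10 COS genes, of which 7 were lower. Reaching the filter in both fractions were 20 without a symbol, of which 15 were higher and 0 lower, and 30 with a symbol, of which 18 were higher and 7 lower.

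The reading frame with the most eluate counts of all the members was YEL077C, the outermost one at the left end of chromosome V (chrV:264-4097, sacCer3, 3834 bases, transcribed toward the end). It had 218 and 249.9 CPM in the eluates, against 7.44 and 8.62 CPM in the lysates. Both eluates were far above both lysates, with a log2 fold change of 4.87 ± 0.126 (SE, n = 2 each, edgeR adjusted p = 4.19e-14). It overlaps YEL077W-A on the opposite strand, with the use of strand in counting not given in the sources used here.

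Next among the outermost reading frames came YBL113C and YPR204W. YBL113C, at the left end of chromosome II (chrII:280-2658), had 89.7 and 93.9 CPM in the eluates, against 1.80 and 3.42 CPM in the lysates, with a log2 fold change of 5.18 ± 0.176 (SE, edgeR adjusted p = 5.31e-13). YPR204W, at the right end of chromosome XVI (chrXVI:944603-947701), had 42.0 and 44.5 CPM in the eluates, against 0.834 and 2.03 CPM in the lysates. Its log2 fold change was 4.98 ± 0.217 (SE, edgeR adjusted p = 7.73e-12). Both overlap another reading frame on the opposite strand, and the lysate level of YPR204W rests on 13 and 25 counts.

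YHR219W, outermost at the right end of chromosome VIII, was seen in the eluates alone. Its eluate counts were 14 and 31 and its lysate counts 0 and 0, which makes it at least 8.27-fold higher against a floor of 3 counts over both lysates. YOR394C-A, a reading frame of 168 bases, had eluate counts of 25 and 29 and lysate counts of 0 and 0, at least 10.3-fold higher by the same floor. This gene lies outside the rule for named genes and was named after its values were seen.

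The Y′ helicase genes, whose products are encoded within Y′ elements, numbered 4 among the members, and 1 of them could be tested. YRF1-2, at the right end of chromosome V (chrV:571480-576525), had 12.2 and 14.6 CPM in the eluates, against 1.60 and 1.38 CPM in the lysates. This is a log2 fold change of 3.16 ± 0.215 (SE, edgeR adjusted p = 1.51e-09). The other copies, YRF1-1, YRF1-5 and YRF1-8, share a length of 5391 bases and had between 4 and 13 counts in each eluate, against 0 or 1 in each lysate. YRF1-2 is the copy whose length differs, at 5046 bases, and it alone had enough counts for a test.

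YRF1-2 overlaps YER189W, a reading frame of 369 bases on the same strand, so that the 2 values share reads or positions. YER189W had 9.05 and 10.5 CPM in the eluates, against 0.834 and 0.976 CPM in the lysates, a log2 fold change of 3.44. At the other end of the same chromosome, YEL075W-A had 9.75 and 11.8 CPM in the eluates, against 1.15 and 1.14 CPM in the lysates, a log2 fold change of 3.23. It overlaps YEL075C and YEL076C on the opposite strand, which were higher too but reached the filter in the eluates only. YEL075C had eluate counts of 35 and 51 against lysate counts of 1 and 1. YEL076C had eluate counts of 27 and 21 against lysate counts of 5 and 0.

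Overlap with another reading frame moved with the result. Of 40 members that overlap another on the opposite strand, 13 were tested and 12 of them were higher. Of 16 that overlap one on the same strand, 8 were tested and 7 were higher. The 104 members that overlap none gave 56 tested genes, of which 35 were higher and 10 lower, with a median log2 fold change of 1.00.

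Among the highest members free of any overlap were 3 at the right end of chromosome I. YAR064W (chrI:220198-220497, 300 bases) had 37.3 and 43.8 CPM in the eluates, against 0.962 and 1.14 CPM in the lysates, with a log2 fold change of 5.28 ± 0.196 (SE, edgeR adjusted p = 1.36e-12). YAR066W (chrI:221049-221660) had 20.5 and 23.8 CPM in the eluates, against 0.834 and 0.325 CPM in the lysates, a log2 fold change of 5.17. It reached the filter in the eluates only. YAR068W (chrI:222406-222891) had 26.4 and 26.0 CPM in the eluates, against 1.09 and 0.895 CPM in the lysates, a log2 fold change of 4.70. These 3 reading frames lie next to each other, on the same strand, between 6426 and 9119 bases from the end.

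**Figure D3:**
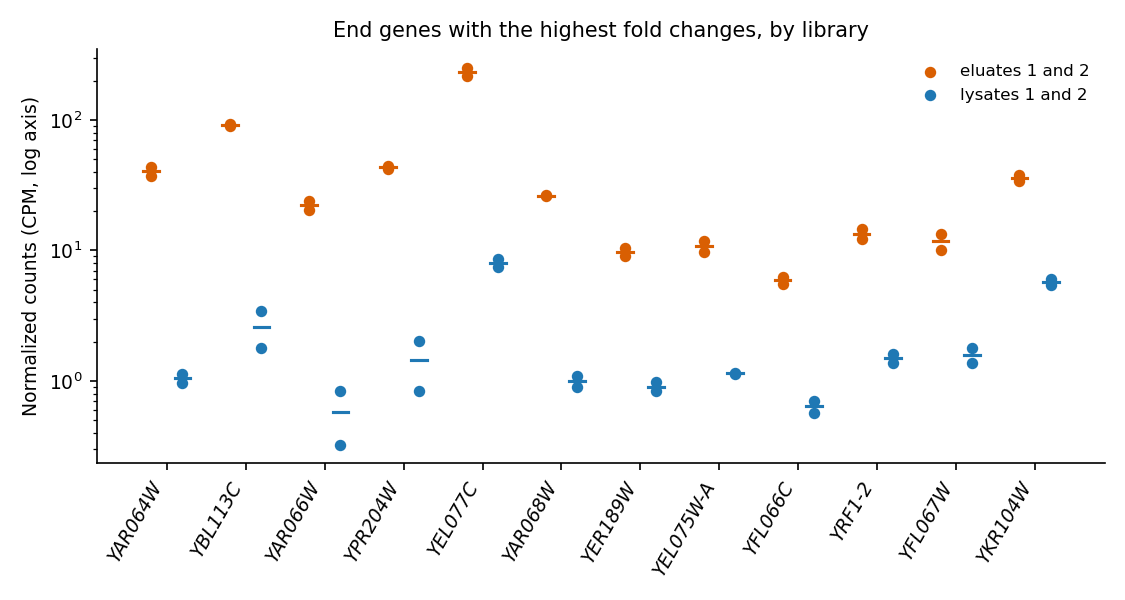
Normalized counts per library (CPM, log y axis) of the 12 end genes with the highest fold changes among called members with a mean of at least 2 CPM, in eluates 1 and 2 (orange) and lysates 1 and 2 (blue), with bars at the mean of each pair. Every eluate point is above both lysate points of its gene, and YEL077C is highest at 218 and 249.9 CPM in the eluates.

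A second cluster lay at the left end of chromosome VI. YFL067W had 10.2 and 13.4 CPM in the eluates, against 1.80 and 1.38 CPM in the lysates, a log2 fold change of 2.88. YFL066C had 5.50 and 6.28 CPM in the eluates, against 0.705 and 0.569 CPM in the lysates, a log2 fold change of 3.18. YFL065C and YFL064C, which overlap each other, were higher too, though both reached the filter in the eluates only. COS4, the COS gene on the same chromosome arm, lay 6373 bases from the end and was lower.

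YKR104W, on the right arm of chromosome XI, was among the better measured reading frames without a symbol. It had 37.8 and 34.1 CPM in the eluates, against 6.09 and 5.45 CPM in the lysates, with a log2 fold change of 2.63 ± 0.141 (SE, edgeR adjusted p = 8.41e-11). YIR042C, outermost at its end of chromosome IX, had eluate counts of 51 and 52 against lysate counts of 24 and 21, a log2 fold change of 0.38 that did not pass the test (edgeR adjusted p = 0.199).

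The COS genes were the exception to the direction of the other members. Cos proteins are membrane proteins that help sort cell surface proteins into the multivesicular body for degradation. All 10 COS members were tested, and 7 were lower in the eluates, 1 was higher and 2 did not pass. Their median log2 fold change was -2.25. COS2, COS3, COS4 and COS12 were the only members that reached the filter in the lysates and not in the eluates. These 4 thus entered the test only through the fraction where they are high. Without the COS genes, 49 of 63 tested end genes were higher and 4 lower, with a median of 1.72.

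COS6 (chrVII:1081584-1082729) had the most lysate counts of the end genes, a little above IRC7. It had 12.7 and 10.4 CPM in the eluates, against 173 and 163 CPM in the lysates, with a log2 fold change of -3.87 ± 0.114 (SE, edgeR adjusted p = 1.24e-13). COS3 (chrXIII:7244-8383), at a far lower level, had 0.231 and 0.365 CPM in the eluates, against 5.84 and 6.02 CPM in the lysates, with a log2 fold change of -4.25 ± 0.299 (SE, edgeR adjusted p = 2.31e-09). In both genes the eluates and lysates were far apart.

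The lower COS genes covered a wide range of levels. COS8 had 3.19 and 2.92 CPM in the eluates, against 16.9 and 15.9 CPM in the lysates, a log2 fold change of -2.43. COS1 had 2.08 and 2.08 CPM in the eluates, against 10.9 and 13.8 CPM in the lysates, a log2 fold change of -2.56. COS2 and COS12, the outermost reading frames at their ends, had log2 fold changes of -2.89 and -2.06. COS4 had eluate counts of 10 and 3, against lysate counts of 13 and 8, and passed at an adjusted p of 0.0243 by edgeR. It did not pass with DESeq2 (0.129), without eluate replicate 2 (0.248) or without lysate replicate 1 (0.0646), where 6 of the 10 COS genes were lower.

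COS10 (chrXIV:779916-781040) was higher in the eluates, at 17.6 and 19.5 CPM, against 9.49 and 9.35 CPM in the lysates, with a log2 fold change of 0.98 ± 0.139 (SE, edgeR adjusted p = 8.07e-06). COS5 and COS7 had log2 fold changes of 0.30 and 0.22, which did not pass (edgeR adjusted p = 0.0902 and 0.19), although COS5 was called higher without eluate replicate 1 (0.0396). COS10 is also the COS member transcribed toward the chromosome end, and the other 9 are transcribed away from it. COS genes are close in sequence and length, with 3 members each of 1140 and 1146 bases and 2 of 1152 bases, so that reads may be split among them in a way that depends on the counting.

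**Figure D4:**
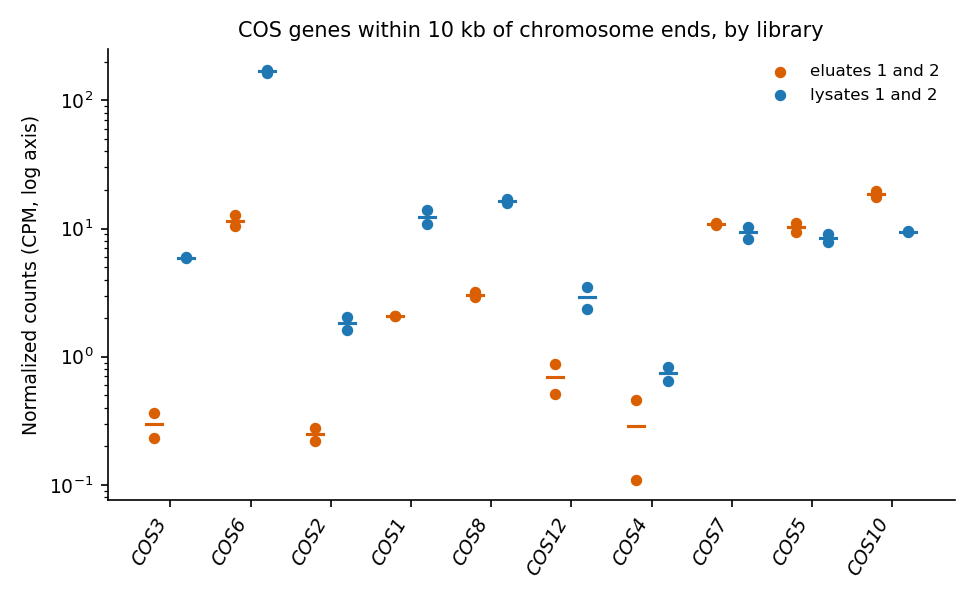
Normalized counts per library (CPM, log y axis) of the 10 COS genes within 10 kb of chromosome ends, ordered by fold change, in eluates 1 and 2 (orange) and lysates 1 and 2 (blue), with bars at the mean of each pair. Both eluates lie below both lysates from COS3 to COS4, the fractions are close in COS7 and COS5, and both eluates lie above both lysates in COS10.

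The seripauperins, cell wall proteins of a large family whose members are repressed by oxygen, had few or no reads. As 7 of the members share a length of 363 bases, low counts here cannot be told apart from reads that could not be placed. Of 14 PAU members, 4 were at 0 in all libraries and 2 could be tested, both higher. PAU3 had eluate counts of 38 and 27, against lysate counts of 1 and 0, and reached the filter in the eluates only. PAU6 had 2.03 and 1.64 CPM in the eluates, against 0.834 and 1.38 CPM in the lysates, a log2 fold change of 0.75 that passed narrowly (edgeR adjusted p = 0.0421). It did not pass without eluate replicate 1 (adjusted p = 0.16), eluate replicate 2 (0.0598) or lysate replicate 1 (0.371). With eluate counts of 13 and 16 and 3 counts in each lysate, PAU24 was the best covered of those not tested.

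The genes for the use of alpha-glucosides were all tested. MAL31, a maltose permease, had 117 and 111 CPM in the eluates, against 38.6 and 36.4 CPM in the lysates, a log2 fold change of 1.60 ± 0.0941 (SE, edgeR adjusted p = 2.65e-10). MPH3 and MPH2, alpha-glucoside permeases, were also higher, with log2 fold changes of 1.93 and 1.72. MAL32, the maltase beside MAL31, had 4.57 and 4.02 CPM in the eluates, against 3.65 and 2.68 CPM in the lysates, which did not pass (log2 fold change of 0.41, edgeR adjusted p = 0.0925) except without lysate replicate 1 (0.0437).

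The 5 tested genes of metal and siderophore handling moved in both directions. ARN2, a siderophore transporter, had 78.2 and 70.7 CPM in the eluates, against 51.1 and 35.6 CPM in the lysates, a log2 fold change of 0.77. GEX2, a glutathione exchanger, had 7.71 and 5.77 CPM in the eluates, against 5.0 and 4.07 CPM in the lysates, a log2 fold change of 0.55 (edgeR adjusted p = 0.0212). The 3 neighbouring arsenic resistance genes did not move together. ARR1, the transcription factor, fell to 14.0 and 12.6 CPM in the eluates, against 37.8 and 35.0 CPM in the lysates, a log2 fold change of -1.45. ARR2, the arsenate reductase, was lower at -0.60 (edgeR adjusted p = 0.0243), and ARR3, the arsenite exporter, was higher at 0.66. GEX2 did not pass without eluate replicate 1 (edgeR adjusted p = 0.13) or lysate replicate 2 (0.108), nor ARR2 without eluate replicate 1 (0.0717), eluate replicate 2 (0.0768) or lysate replicate 2 (0.127).

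The other permease genes were higher where they could be tested. VBA5, related to vacuolar amino acid transporters, had 22.1 and 22.7 CPM in the eluates, against 4.87 and 5.12 CPM in the lysates, a log2 fold change of 2.17. MCH2, related to monocarboxylate permeases, had 16.1 and 13.2 CPM in the eluates, against 4.94 and 5.61 CPM in the lysates, a log2 fold change of 1.47. SEO1, a putative permease, was higher at 0.86 (edgeR adjusted p = 0.0444), but not without eluate replicate 1 (0.378) or lysate replicate 1 (0.106). VBA3 had 0 counts in all 4 libraries.

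Among the enzymes, AAD3, a putative aryl-alcohol dehydrogenase, had 38.2 and 40.9 CPM in the eluates, against 17.1 and 15.0 CPM in the lysates, a log2 fold change of 1.30. ERR3, an enolase-related gene, had eluate counts of 14 and 27, against lysate counts of 1 and 1. It reached the filter in the eluates only, so that its call (edgeR adjusted p = 0.000263) is a description. IMD2, an IMP dehydrogenase of guanine nucleotide synthesis, had 5.87 and 7.37 CPM in the eluates, against 8.98 and 9.84 CPM in the lysates, and was lower at -0.49 (edgeR adjusted p = 0.0136). It did not pass without eluate replicate 1 (adjusted p = 0.126) or lysate replicate 2 (0.0566). The sorbitol dehydrogenases SOR1 and SOR2 were not tested, with 4 to 10 counts in each eluate and 2 to 5 in each lysate.

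IRC7, a cysteine desulfhydrase, had the highest lysate level per kilobase among the members, at 109 CPM per kb in the eluates and 159 CPM per kb in the lysates. It was lower in the eluates, with a log2 fold change of -0.54 ± 0.0908 (SE, edgeR adjusted p = 4.68e-05). YFR056C, which overlaps it on the opposite strand, went the other way, with 7.71 and 7.12 CPM in the eluates, against 1.73 and 2.03 CPM in the lysates. AIF1, the yeast homologue of an apoptosis-inducing factor, had 21.5 and 19.3 CPM in the eluates, against 25.7 and 22.9 CPM in the lysates, which did not pass (edgeR adjusted p = 0.0559), though it did without lysate replicate 2 (0.0291), with library sizes alone (0.00942), with no filter (0.042) and with the replicate number as a block (0.0462).

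Fold changes in these libraries varied with gene length. Over the 5787 other single-exon genes tested, Spearman's rho between coding length and log2 fold change was 0.46 across genes, which are not independent replicates. Among the 73 end genes it was -0.14, and among the 50 that reached the filter in both fractions it was 0.10. Among the end genes of up to 500 bases, 10 of 23 tested passed through the eluates only. Their median log2 fold change was 1.93 over 23 tested genes, with 18 higher and 1 lower, against -0.96 over 1045 others, with 315 higher and 577 lower. From 500 to 1500 bases the medians were 0.66 in 31 end genes and -0.64 in 2616 others. Above 1500 bases they were 1.60 in 19 end genes and 1.09 in 2126 others. With genes that reached the filter in both fractions alone, the medians from short to long were 1.26, 0.51 and 1.31 in 12, 20 and 18 end genes, against -1.16, -0.65 and 1.09 in 893, 2575 and 2125 others.

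The contrast was then made at like length and like lysate level together. Each tested end gene was set beside the 50 tested genes nearest to it in length and mean lysate CPM. Those like genes were themselves mostly higher in the eluates, on average 66.0% of them, and 41 of 73 end genes lay above the median of their like genes, by a median difference of 0.21 on the log2 scale. Among the 50 end genes that reached the filter in both fractions, 27 lay above, with a median difference of 0.04. As 1 group, the tested end genes thus lay close to tested genes of like length and lysate level elsewhere in the genome. Like genes with low lysate levels, too, could pass the filter through their eluates. For the 18 members that passed through the eluates only, 79.1% of like genes were higher on average. Genes of like level that were not tested have no part in this contrast, so that it cannot place the end genes among all genes of like level.

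That near balance joined unlike groups. Of the 36 end genes without a symbol, 27 lay above the median of their like genes, with a median difference of 1.40. Of the 20 among them that reached the filter in both fractions, 16 did, with a median difference of 1.65. Of the 37 with a symbol, 14 lay above, with a median difference of -0.69. All 10 COS genes, which are among those with a symbol, lay below theirs, COS10 included, with a median difference of -2.81. Without the COS genes, 41 of 63 tested end genes lay above, with a median difference of 0.45. The reading frames that are not in RefSeq gave 9 tested of 56, with a median log2 fold change of 1.98, against 0.39 in 377 tested reading frames elsewhere that are not in RefSeq either.

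**Figure D5:**
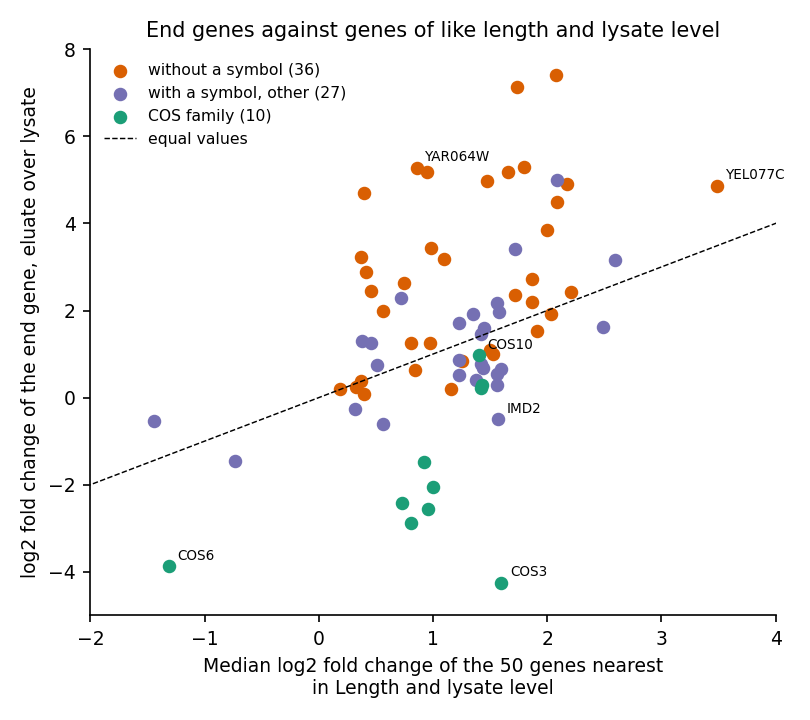
Log2 fold change, eluate over lysate, of each tested end gene (y axis) against the median log2 fold change of the 50 other genes nearest to it in length and lysate level (x axis), with the line of equal values dashed. Most genes without a symbol (orange) lie above the line, 27 of 36, and all 10 COS genes (green) lie below it.

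By direction of transcription, the groups differed over all tested members, and their medians were closer where both fractions were measured. Of 36 tested end genes transcribed toward the chromosome end, 30 were higher and 2 lower, with a median log2 fold change of 2.39. Of 37 transcribed away from it, 20 were higher and 9 lower, with a median of 0.84. Without the COS genes the counts were 29 higher and 2 lower of 35 toward the end, with a median of 2.42, and 20 higher and 2 lower of 28 away from it, with a median of 1.37. For the other genes of the genome the medians were 0.08 toward the nearer end and -0.00 away from it. Among members that reached the filter in both fractions, 19 were higher and 2 lower of 25 toward the end, with a median of 1.01, and 14 were higher and 5 lower of 25 away from it, with a median of 0.68. Without the COS genes these medians were 1.15 over 24 genes toward the end and 1.26 over 20 away from it. More than 4-fold higher were 10 of the 25 toward the end and 4 of the 25 away from it. Without the COS genes these were 10 of 24 and 4 of 20. The difference between orientations was not tested.

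Few genes at the very edge could be tested. Of 24 outermost reading frames that are members, 10 were tested. The 6 transcribed toward the end were all higher, with a median log2 fold change of 4.92 and with GEX2 the lowest at 0.55, and of the 4 transcribed away from it, COS2 and COS12 were lower while COS7 and YIR042C did not pass, at 0.22 and 0.38. The call of GEX2 was lost without eluate replicate 1 (edgeR adjusted p = 0.13) and without lysate replicate 2 (0.108). The counts were 21 higher and 5 lower of 31 tested at left ends, and 29 higher and 6 lower of 42 at right ends.

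As a share of all counts, the end genes were a small part of either fraction. They took 0.128% and 0.125% of all eluate counts, against 0.0810% and 0.0784% of all lysate counts. The eluate share was 1.59 times the lysate share, and both eluates lay above both lysates (p = 0.333 by a two-sided exact permutation test, the smallest value for 2 libraries against 2). Exact binomial 95% intervals, which cover counting error only, ran from 0.124% to 0.130% in the eluates and from 0.0768% to 0.0824% in the lysates.

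A few genes set that share. Without COS6, IRC7, ARN2 and MAL31, which had the most lysate counts, the ratio was 2.71. Without YEL077C, MAL31, IRC7 and RDS1, which had the most eluate counts, it was 1.37. For the members within 5 kb of the end it was 5.70, with 0.0481% and 0.050% of eluate counts, against 0.00837% and 0.00884% of lysate counts. Most of those 10802 and 14959 eluate counts fell on 3 reading frames. YEL077C had 4729 and 6844, YBL113C 1941 and 2571, and YPR204W 910 and 1220.

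The proteins that bind, silence and maintain chromosome ends are encoded elsewhere, and their own transcripts were measured in the same libraries. Of 28 such genes tested, 19 were higher in the eluates and 7 lower, with a median log2 fold change of 1.24. They are long, with a median of 1996 bases, and their 67.9% higher stands beside 72.2% of the other single-exon genes over 1500 bases, whose median was 1.09. SIR4, which encodes the scaffold of the silencing complex, had 1061 and 1127 CPM in the eluates, against 55.8 and 49.3 CPM in the lysates, a log2 fold change of 4.38. SIR2, the histone deacetylase, and SIR3 were higher at 1.31 and 1.16, and RAP1, which binds telomeric repeats, at 1.75. CDC13, which caps the telomere, was higher at 4.14, whereas its partner TEN1 was lower at -2.43 and STN1 did not pass at -0.19 (edgeR adjusted p = 0.124). CDC13, TEN1 and STN1 differ in length, at 2775, 483 and 1485 bases, and fold changes in these libraries varied with length. CDC13 and SIR2 each overlap another reading frame on the opposite strand.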

How the data were processed

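Counts of reads per reading frame, as the authors deposited them, come from reads aligned to sacCer3: the submitters' processing notes list STAR 2.7.9a, featureCounts and Subread 2.0.3, with counting options not given in the sources used here. An eluate over lysate comparison deposited beside them (fold changes, p-values) was not used. Libraries were directional and rRNA-depleted.

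End genes were found from the table's coordinates. Symbols came from the RefSeq table of assembly R64. The tests were those of edgeR 4.0.16 under R 4.3.3 (filterByExpr, TMM, glmQLFit, glmQLFTest, two-sided) across all genes, with fraction as the only term, after tests on simulated data. The SE was taken as the size of the log2 fold change divided by the root of F. Like genes were the 50 nearest tested single-exon genes in log2 length and log2 (mean lysate CPM + 0.05), each scaled by its SD. Shares and permutation tests used Python 3.11.15 and scipy 1.17.1.

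The rule for members reads position alone, but it, the lists and the alternatives were set with earlier results of these data known. Named genes were the 12 highest and 8 lowest called members whose mean was 2 CPM or more and whose eluates both lay on the same side of the lysates, the 5 highest per kb in each fraction, the 2 most abundant of each family and the tested member nearest an end. Others were added after their values were seen. The THI, SNO, SNZ, DDI and VTH lists held 0 members. DESeq2 1.42.0, limma 3.58.1, other scalings, filters, windows and member sets were tried as alternatives. Same-numbered libraries did not deviate together (r = -0.0352 over 6191 genes).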

Additional observations from a re-analysis of the deposited data

How the results depend on the processing

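Counts below are of end genes higher and lower in the eluates, followed where needed by the median log2 fold change and the number above their like genes. The lean of the calls and of the median fold changes toward the eluates did not reverse. The number above like genes did change side. It was 41 of 73 in the main setting and stayed above an even split in most others. It fell below with at least 10 CPM (10 of 24) and within 20 kb (86 of 175). It also fell below without overlapping members (27 of 56) and with symbols only (14 of 37). DESeq2 called 44 higher and 8 lower, and the replicate block, for samples that share only a number, 50 and 12. Without a filter the median was 1.90 and 70 of 118 lay above. With at least 10 CPM in 2 libraries 24 genes remained, with 17 higher, 5 lower and 10 above. Leaving out 1 library gave 46 to 55 higher, 9 to 10 lower, medians of 1.38 to 1.66 and 39 to 48 above. Within 5 kb there were 19 higher and 2 lower, a median of 1.61, 17 above and a share ratio of 5.703, and within 20 kb 103, 49, 0.89 and 86. Without overlapping members the median was 1.00, with 27 of 56 above and a median difference from like genes of -0.20. Without families and shared lengths there were 23 higher, 1 lower, a median of 2.08 and 22 above. With symbols only there were 21 higher, a median of 0.66 and 14 of 37 above. 3 alternatives were added after seeing the data: keeping reading frames of several exons gave a median of 1.56, a mean of at least 2 CPM gave 30 higher and 23 above, and the filter in both lysates gave 33 higher, a median of 0.82 and 27 above. Library sizes alone moved the median of all genes by -0.18, and 45.5% of called genes were then higher, against 49.7%. The calls of GEX2, PAU6 and SEO1 were lost with library sizes alone, and those of GEX2, PAU6, ARR2, IMD2, COS4 and SEO1 with DESeq2 and without 1 or more single libraries, whereas AIF1 passed without lysate replicate 2, with library sizes alone, with no filter and with the block. Causes were not tested. The lysates' depth, counts of 0 at repeated copies and the unstated handling of strand limit these values.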

Other observations

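The reading frames of several exons that lie in the same window, which the rule leaves out, could be tested in 5 of 13 cases, and all 5 were higher in the eluates. Of these, YBL111C and YLL066C reached the filter in the eluates only. YPR202W had eluate counts of 1130 and 1706, against lysate counts of 79 and 66, a log2 fold change of 3.46. YLL066C had eluate counts of 189 and 231, against lysate counts of 5 and 5, and YJL225C had eluate counts of 255 and 356, against lysate counts of 11 and 7, with log2 fold changes of 4.55 and 4.25. The helicase genes YRF1-3, YRF1-6 and YRF1-7 are of this kind and were not tested, with 3 to 14 counts in each eluate and 0 or 1 in each lysate. PHO11 and PHO12, which lie in the window and were left out by name, were lower, with log2 fold changes of -0.80 and -1.45.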
